A study of Mus musculus with 22 samples.

Results

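The subject is 10 transcription factor genes that mark or set memory and stem-like states in T cells: Tcf7, Lef1, Eomes, Tbx21, Id2, Id3, Zeb2, Bach2, Myb and Foxo1. They were chosen by gene symbol, and each matched 1 of the 46297 rows of the deposited table. All 10 passed the filter on low values (at least 10 scaled counts in at least 2 libraries), which 14327 genes passed. The cells were CD8+ P14 T cells, which carry a transgenic receptor for a viral peptide, either wild-type (WT) or VHL-deficient, from mice labelled C57BL/6 and aged 6 to 12 weeks. They came from tumors at day 11 (3 libraries per genotype), and from tumors and spleens at day 7 (2 libraries per genotype each), and day 7 tumor cells were also sorted into Trm (tissue-resident memory) and nonTrm fractions (2 libraries per genotype each). That makes 22 libraries in 10 groups. The series text states 5 mice per biological replicate, so each library averages over pooled mice, and p-values measure the spread between these pools. The sources used here do not name the tumor line, the Cre that removed Vhl, the markers of the Trm sort or the number of cells per library.

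TCF-1 (from Tcf7) and LEF1 are paralogous factors that hold naive, memory and stem-like programs. Eomes and T-bet (from Tbx21) are paired T-box factors, with T-bet tied to effector and Eomes to memory fates, and Zeb2 acts with T-bet in terminal effector cells. Id2 and Id3 block E proteins and favour effector and memory cells respectively. Bach2 and Myb restrain effector differentiation and sustain stem-like cells, and Foxo1 drives naive and memory genes, Tcf7 among them. VHL marks the hypoxia-inducible factors HIF-1 and HIF-2 for destruction, so its loss leaves them active in oxygen.

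The libraries held 3375558 to 10211060 reads each, and 1 read was worth 0.684 to 2.73 scaled counts (the authors' values with their offset removed). Vhl had 0 to 32 reads in the 11 VHL-deficient libraries and 60 to 280 in the 11 WT libraries, so the target gene matched its label in all of them. The T cell markers summed to 31285 to 84305 scaled counts per library. Markers of other cells were partly present: 2 of 7 B cell, 2 of 7 NK cell, 1 of 8 macrophage and monocyte, 4 of 8 dendritic cell and 1 of 6 melanoma markers were above 0 in all 22 libraries. Those at 0 in over 11 libraries numbered 4, 3, 3, 3 and 1, among them Pax5 (18), Ncr1 (15), Adgre1 (17), Clec9a (18) and Sox10 (20). Neutrophil markers summed highest in WT day 11 tumor replicate 2 (740). The lowest sum in that group was 6.05, and VHL-deficient day 11 libraries had 41.2 to 152. WT day 11 tumor replicate 2 also had the highest NK cell (962) and macrophage and monocyte (143) sums and the highest Eomes (55.5). The part of these cells in its Eomes level was not tested. VHL-deficient day 7 nonTrm replicate 2 stood apart, with 45.7% of its reads on 1 ribosomal RNA gene (26.9% to 42.3% elsewhere) and 34358 scaled counts of Malat1 (4839 to 15027 elsewhere). The plate held the Trm and nonTrm sorts in column 1, the unsplit day 7 cells in column 2 and the day 11 cells in column 3.

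Myb and Eomes were the only members called lower in VHL-deficient cells in any of the 5 settings taken singly. Zeb2 was the member that differed most between tumor and spleen. HIF binds DNA at a short core motif, so the promoters of Myb, Eomes and Zeb2 are shown (RefSeq, GRCm38.p6, the assembly of mm10). Each runs 5′ to 3′ over the 250 bases before a RefSeq transcript start and touches no exon of its own gene in the GENCODE M21 annotation. Exons of other genes were not checked. Capitals mark the core HIF motif, ACGTG or GCGTG on either strand. The Myb window is chr10:21160985-21161234 on the minus strand, the Eomes window is chr9:118477939-118478188 on the plus strand, and the Zeb2 window is chr2:45117443-45117692 on the minus strand.
Myb: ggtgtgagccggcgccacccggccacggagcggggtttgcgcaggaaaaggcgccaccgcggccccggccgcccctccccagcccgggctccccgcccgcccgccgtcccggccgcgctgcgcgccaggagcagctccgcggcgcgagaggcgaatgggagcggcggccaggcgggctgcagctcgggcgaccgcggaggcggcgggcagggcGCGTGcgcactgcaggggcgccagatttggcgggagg
Eomes: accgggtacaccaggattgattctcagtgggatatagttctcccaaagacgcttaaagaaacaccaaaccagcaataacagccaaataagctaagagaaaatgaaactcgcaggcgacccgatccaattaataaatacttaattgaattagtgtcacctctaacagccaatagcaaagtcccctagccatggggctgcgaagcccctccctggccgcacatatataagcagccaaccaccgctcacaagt
Zeb2: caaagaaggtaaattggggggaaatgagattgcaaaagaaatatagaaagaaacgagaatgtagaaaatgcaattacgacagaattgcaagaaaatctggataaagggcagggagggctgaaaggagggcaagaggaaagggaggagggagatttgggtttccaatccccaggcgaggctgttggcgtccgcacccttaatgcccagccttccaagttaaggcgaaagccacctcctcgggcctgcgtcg
The Myb window holds 1 core HIF motif, at position -37 from the start, and the Eomes and Zeb2 windows shown hold none. Across the 17 RefSeq promoters of the 10 members, 6 held this motif (in Foxo1, Id3, Lef1, Myb and Zeb2), against 38.6% of 32851 mouse promoters of that length. The TCF/LEF motif (CTTTGAT or CTTTGAA), the FOXO motif (GTAAACA) and the T-box motif (AGGTGTGA) occurred in 0 of the 17, against 7.5%, 3.2% and 1.1% of all promoters. The ZEB motif (CACCTG) occurred in 1, of Tbx21, against 17.2%. The MYB motif (AACGG or AACTG) occurred in 6 of the 17, against 48.6%. Both strands were searched in every case, and several windows of Lef1 and of Zeb2 overlap each other. A match is a string of letters and does not show binding.

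Expression differed in scale among the members. Per kilobase of exon, Id2 was the most abundant, with group means from 703 to 3445 scaled counts per kb, and Tbx21 followed with 260.3 to 451 in every group but WT spleen, where Tcf7 was above it (498 against 449.6). Tcf7 spanned 16.4 to 498, Lef1 21.4 to 82.3, Bach2 19.9 to 64.4 and Foxo1 39.7 to 104 scaled counts per kb. Zeb2 has 19942 bases of exon over all its transcripts. Undivided, its WT day 11 tumor mean was 222.5 scaled counts, beside 227.4 for Lef1 and 44.9 for Eomes. Per kb, Zeb2 (0.473 to 11.2), Eomes (0.197 to 10.8) and Myb (0.421 to 23.2) were the scarce members. Id3 lay at 2.49 to 19.8 outside WT spleen and at 91.3 in it, above Lef1, Foxo1 and Bach2 there. The widest ratios between the highest and lowest group means were those of Myb (55.2), Eomes (54.8), Id3 (36.6), Tcf7 (30.4) and Zeb2 (23.6), and the narrowest that of Tbx21 (1.73). When groups were ordered by level, the libraries of neighbouring groups did not overlap in 5 of 9 neighbour pairs for Myb. They did not overlap in 2 of 9 for Tcf7 and Zeb2, in 1 of 9 for Lef1, Tbx21, Id2, Id3 and Bach2, and in 0 of 9 for Eomes and Foxo1. Such counts were not computed over all tested genes, so they only describe the members.

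**Figure D1:**
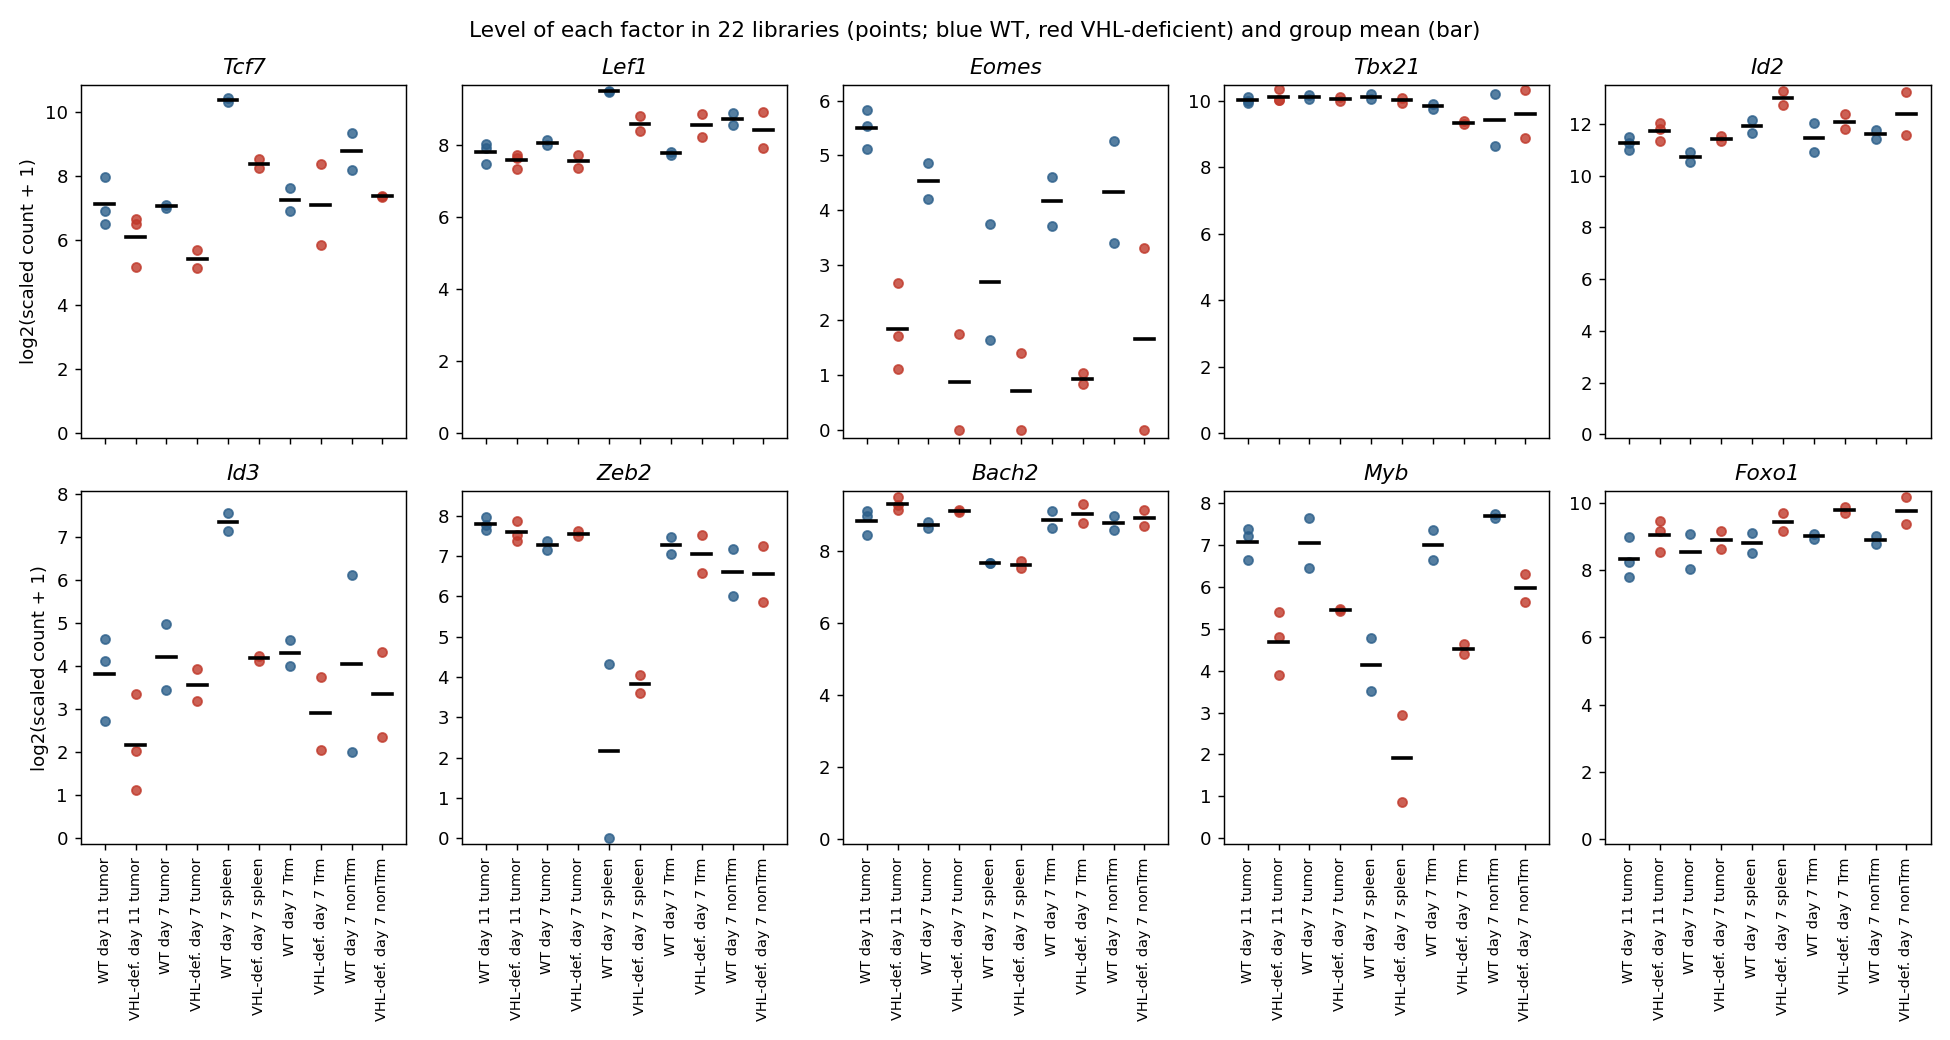
Level of each of the 10 members, as log2(scaled count + 1), in 22 libraries by group; points are libraries (blue WT, red VHL-deficient) and bars are group means of the log2 values. Tcf7, Lef1 and Id3 are highest in WT spleen, Zeb2, Bach2 and Myb are lowest in the spleens, and Eomes and Myb sit lower in VHL-deficient than in WT libraries in each of the 5 settings.

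Tumor and spleen cells of day 7 lay in 1 plate column, and compare P14 cells at 2 sites. In WT cells 6 of the 10 members passed the test, 3 lower and 3 higher in tumor (21.5% of all tested genes were called, 13.2% higher and 8.31% lower). In VHL-deficient cells 6 of 10 passed as well, 3 each way (15.4% of genes called, 9.98% higher and 5.47% lower). The naive and memory factors Tcf7, Lef1 and Id3 were the lower ones in WT tumor, and Zeb2, Bach2 and Myb the higher ones. The members' median log2 difference was -0.13 in WT and -0.25 in VHL-deficient cells, beside 0.08 and 0.06 over all tested genes.

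Tcf7 read 1251 and 1364 scaled counts in the WT spleen libraries and 137 and 127 in the WT tumor libraries. In VHL-deficient cells it read 306 and 366 in spleen and 51.4 and 34.7 in tumor. Spleen libraries were above tumor libraries in both genotypes, with no overlap. The difference was -3.30 ± 0.62 in WT (log2, SE, adjusted p = 7.14e-04) and -2.96 ± 0.62 in VHL-deficient cells (adjusted p = 0.00239), and both calls held under all 14 settings tried for each. Lef1, the paralog of Tcf7, had smaller differences. It went from 728 and 719 in WT spleen to 281 and 256 in WT tumor (-1.43 ± 0.32, adjusted p = 0.00312, called under all 14 settings). In VHL-deficient cells Lef1 read 335 and 452 in spleen and 212 and 164 in tumor (-1.06 ± 0.32, adjusted p = 0.0276, called under 8 of 14 settings). That call was lost without each of the 4 libraries in turn, with adjusted p = 0.0709 and 0.189 without tumor replicates 1 and 2, and 0.0572 and 0.183 without spleen replicates 1 and 2.

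Id3, the inhibitor tied to memory cells, read 186 and 140.4 in WT spleen against 9.82 and 30.6 in WT tumor. The WT spleen was the only group with Id3 above 100 scaled counts in every library. The difference was -3.14 ± 1.05 (adjusted p = 0.0372), called under 8 of 14 settings. Among those that lost the call were the fits without WT tumor replicate 1 or 2 and without WT spleen replicate 1 or 2. In VHL-deficient cells Id3 was low at both sites (17.9 and 16.4 in spleen, 8.12 and 14.2 in tumor, adjusted p = 0.743). Whether the difference between sites itself differed by genotype gave 2.52 ± 1.48 (adjusted p = 0.578). Id2, the effector-side inhibitor, also read lower in tumor: 1485 and 1943 against 4518 and 3242 in WT spleen, and 2956 and 2566 against 9964 and 6832 in VHL-deficient spleen. It fell in VHL-deficient cells (-1.58 ± 0.43, adjusted p = 0.0166), a call lost without tumor replicate 1 (0.0781), tumor replicate 2 (0.104) or spleen replicate 1 (0.165). In WT cells it had -1.17 ± 0.43 (adjusted p = 0.0592), which passed with a further TMM scaling (0.0369), with limma-voom (0.0370) or without VHL-deficient day 7 nonTrm replicate 2 (0.0114).

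Zeb2 was close to the detection limit in spleen, with 0 and 18 reads in the WT libraries and 5 and 19 in the VHL-deficient ones. In tumor it read 166 and 141 scaled counts in WT and 195 and 179.6 in VHL-deficient cells, against 0 and 18.9 in WT spleen and 11.2 and 15.6 in VHL-deficient spleen. Tumor was higher in both genotypes, by 5.11 ± 0.80 (adjusted p = 1.31e-04) and by 3.73 ± 0.80 (adjusted p = 0.00315). The size in WT rests on the spleen pair: it was 2.95 without WT spleen replicate 1 and 7.27 without replicate 2. A fit on the compared groups alone lost the WT call (adjusted p = 0.0869). Macrophages also express Zeb2. The 8 macrophage and monocyte markers summed to 51.3 to 75.3 scaled counts in WT tumor and 24.3 to 43.3 in VHL-deficient tumor, against 13.9 to 14.7 and 14.8 to 26.8 in the spleens, led over all 22 libraries by Cd68 (8.35 to 89.2, at 0 in none). Cd14 was at 0 in 4 libraries, Lyz2 in 3, Csf1r in 6, C1qb in 7, C1qa in 16, Adgre1 in 17 and Fcgr1 in 19. Their part in the Zeb2 difference was not tested.

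Bach2 rose in tumor in both genotypes, from 203 and 205 to 448 and 399.8 in WT and from 186 and 210.0 to 551 and 572 in VHL-deficient cells. The differences were 1.05 ± 0.28 (adjusted p = 0.0105, called under 10 of 14 settings) and 1.50 ± 0.28 (adjusted p = 7.98e-04). The tumor libraries of the genotypes were apart, VHL-deficient higher (0.41, adjusted p = 0.531), and the spleens overlapped. The VHL-deficient call held under all 14 settings, and the WT call was lost without WT tumor replicate 1 (0.0552), WT spleen replicate 1 (0.0551) or WT spleen replicate 2 (0.0572). Myb, by contrast with Tcf7, was higher in tumor: 199.6 and 87.0 against 26.4 and 10.5 in WT spleen, and 41.9 and 43.3 against 6.70 and 0.820 in VHL-deficient spleen. The differences were 2.90 ± 0.61 (adjusted p = 0.00204) and 3.54 ± 0.61 (adjusted p = 4.53e-04). The first ranged from 2.28 without WT spleen replicate 2 to 3.53 without WT spleen replicate 1, with 2.31 and 3.50 without WT tumor replicates 1 and 2. The second was 4.58 without VHL-deficient spleen replicate 1 and 2.50 without replicate 2. All of these kept the call, and only the fit on the compared groups alone lost it for WT (adjusted p = 0.0604).

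Tbx21, Eomes and Foxo1 did not pass between tumor and spleen in either genotype. T-bet's message was nearly level, with 1067 and 1155 in WT tumor, 1184 and 1053 in WT spleen, and a 95% interval of the difference from -0.82 to 0.81. Foxo1 had -0.25 (interval -1.09 to 0.59) in WT and -0.53 (-1.37 to 0.31) in VHL-deficient cells. Eomes had 28 reads in WT tumor and 11 in WT spleen, a difference of 1.84 ± 1.01 (adjusted p = 0.203). For no member did the difference between tissues depend on genotype in the test of that interaction, which called 10 genes (0.0698%). The genotype comparisons below and the tissue comparisons share libraries, so their values stand side by side and are not separate evidence.

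**Figure D2:**
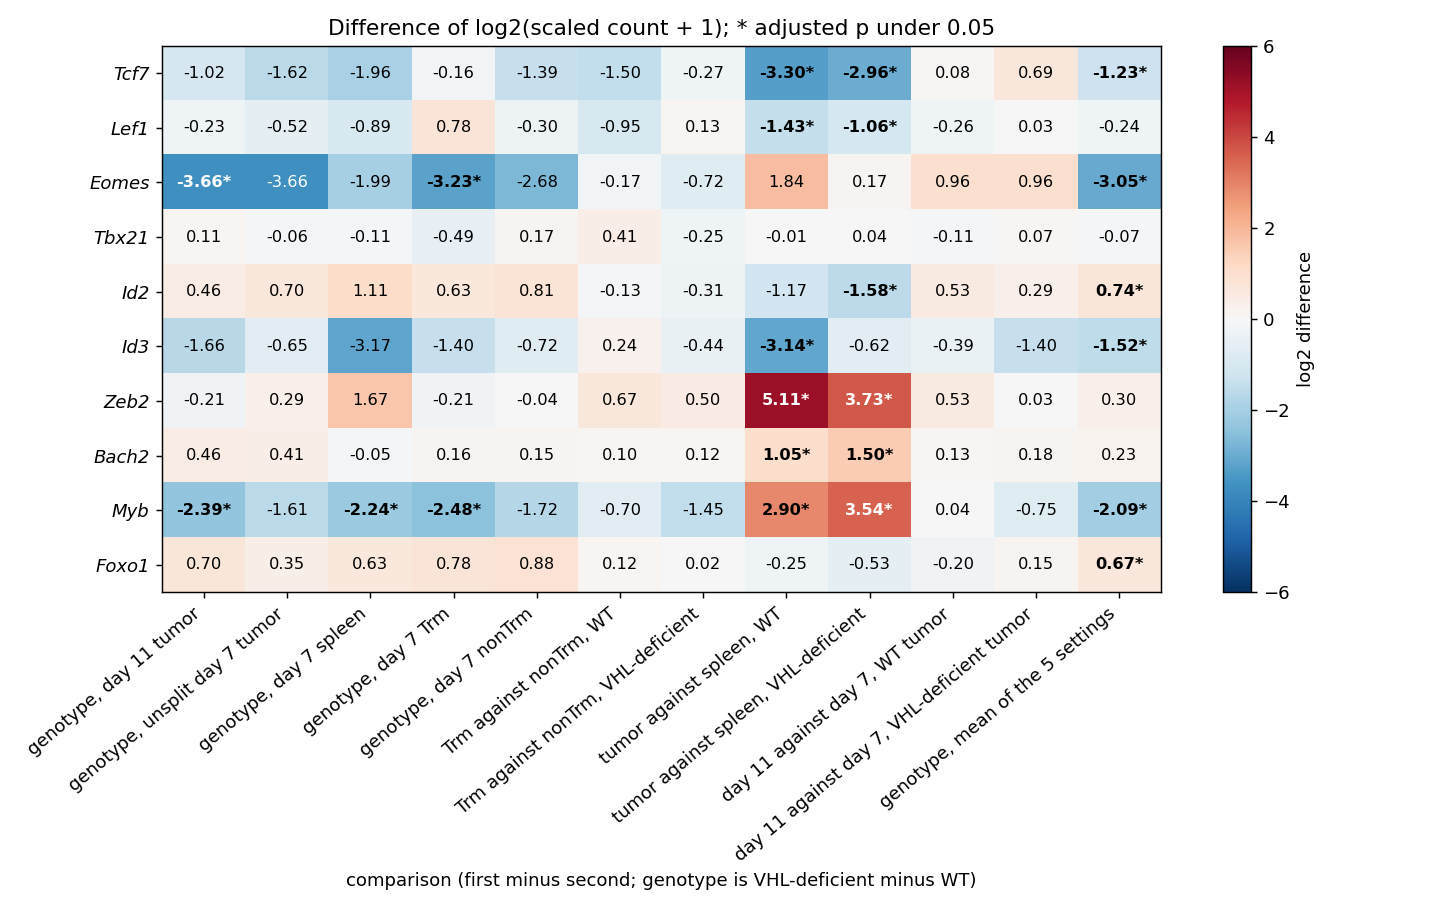
Difference in log2(scaled count + 1) of the 10 members (rows) in 11 comparisons of 2 groups and in the mean genotype difference over 5 settings (columns); asterisks and bold mark adjusted p under 0.05. The tumor against spleen columns carry 12 of the marks, from -3.30 for Tcf7 to 5.11 for Zeb2, and the Trm against nonTrm and day columns carry 0.

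Known target genes of the members were split in direction between tumor and spleen. Of 10 textbook FOXO1 targets, 7 were lower and 2 higher in WT tumor than in WT spleen (median -2.04), and 6 were lower and 2 higher in VHL-deficient tumor (median -1.77). The lymph node exit receptor S1pr1 fell from 1367 to 52.6 (-4.73, adjusted p = 1.32e-06) and the interleukin-7 receptor Il7r from 3736 to 304 (-3.66, adjusted p = 1.90e-06) in WT cells. Pik3ip1, an inhibitor of PI3 kinase, fell from 700.4 to 58.8 (-3.55, adjusted p = 2.13e-06). The 2 higher members, named after their values were seen, were Irs2 (386 against 32.6) and the chemokine receptor Ccr7 (6453 against 609). Il7r, S1pr1 and Ccr7 also count among the stem-like genes below. Foxo1's own message did not pass in this comparison.

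Of 17 tested stem-like and circulating memory genes, 4 rose and 8 fell in WT tumor (median -0.87), and 4 rose and 5 fell in VHL-deficient tumor (median -0.80). Xcl1, a chemokine made by stem-like cells and by activated T cells, had the smallest adjusted p, rising from 8.36 to 1378 in WT (7.25, adjusted p = 1.29e-07). Of 15 tested targets of T-bet and Eomes, 10 rose and 3 fell in WT tumor (median 1.30), and 9 rose and 2 fell in VHL-deficient tumor (median 1.60). The chemokines Ccl3 (1277 against 6.62) and Ccl4 (2560 against 111) and interferon gamma, Ifng (1585 against 83.3), led in WT. Among 9 other fate factors 5 rose and 0 fell in WT tumor, with Irf4 (908 against 31.5), Bhlhe40 (8396 against 753) and Nfil3 (495 against 55.6) first. All 12 proliferation genes rose in tumor in both genotypes. Bulk libraries cannot tell fewer cells of a type from less RNA per cell, which touches each of these differences.

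**Figure D3:**
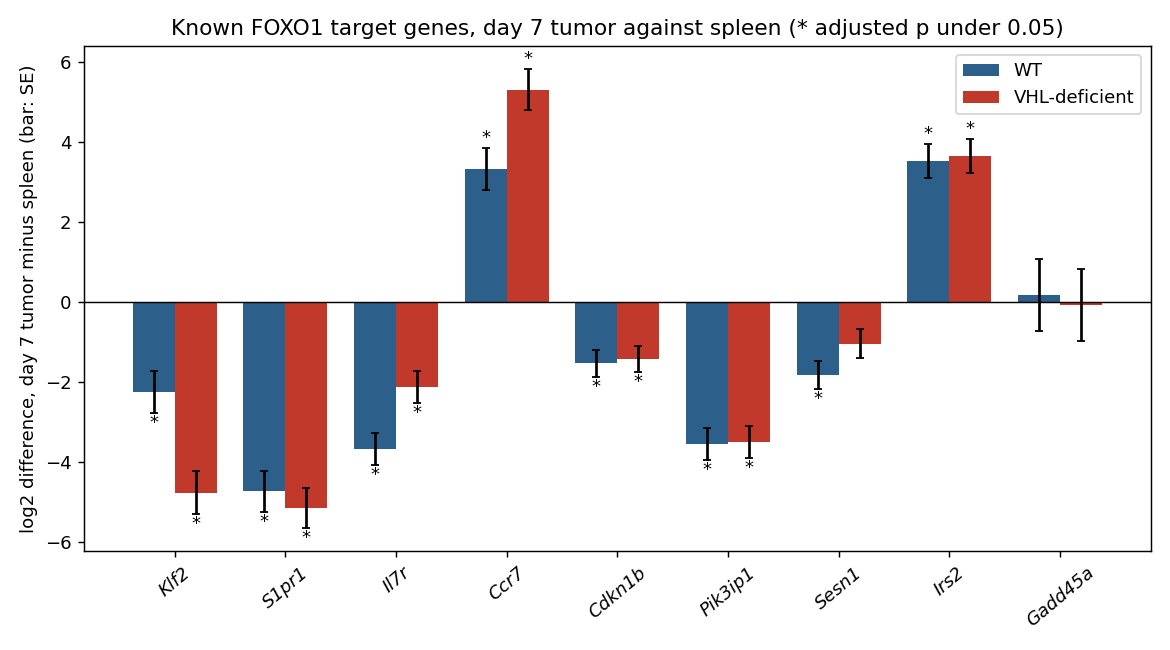
Difference in log2(scaled count + 1) between day 7 tumor and spleen for 9 of the 10 known FOXO1 targets in WT (blue) and VHL-deficient (red) cells; bars show the difference, whiskers its SE, and asterisks adjusted p under 0.05. S1pr1, Il7r and Pik3ip1 lie below 0 in both genotypes, while Irs2 and Ccr7 lie above.

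Genotype was compared within 5 settings, each in 1 plate column. Myb and Eomes were the members that passed, always lower in VHL-deficient cells. Eomes met the filter on low values through WT libraries alone, since no VHL-deficient library read above 8.89 scaled counts. Its genotype calls, here and below, could therefore hardly have gone the other way. At day 11 both Myb and Eomes passed (2 of 10, where 6.87% of genes were called and 2.39% were lower). In the Trm sort both did again (2 of 10, 10.1% called and 5.03% lower). In the day 7 spleen Myb alone passed (1 of 10, 3.18% called and 0.733% lower). In the unsplit day 7 tumor (1.91% called) and in nonTrm cells (2.32% called) 0 members passed. At an unadjusted p under 0.05, 3 and 4 of the 10 members passed, where 13.6% and 15.3% of all genes did. The direction was negative for Myb and for Eomes in 5 of 5 settings. In scaled counts, WT and VHL-deficient libraries did not overlap in any of them. For Eomes the nearest spleen libraries had 2 reads each (2.10 in WT, 1.64 in VHL-deficient cells). In nonTrm cells they had 8 reads in WT (9.54) and 13 in VHL-deficient cells (8.89). These Eomes gaps rest on the scaling. The share of all tested genes without overlap was not computed for any comparison, so lack of overlap only describes the libraries.

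Myb read 149.5, 99.1 and 167 scaled counts in the WT day 11 tumors and 13.9, 26.9 and 41.2 in the VHL-deficient ones. It fell by 2.39 ± 0.50 on the log2 scale (adjusted p = 0.00529), under all 16 settings. In Trm cells it read 165 and 98.6 in WT and 24.1 and 20.2 in VHL-deficient libraries (-2.48 ± 0.61, adjusted p = 0.0139). That call was lost without WT Trm replicate 1 (adjusted p = 0.150) and without VHL-deficient Trm replicate 2 (0.144). In the spleen it fell from 26.4 and 10.5 to 6.70 and 0.820, which is 29 reads in all against 4. There the difference of -2.24 ± 0.61 (adjusted p = 0.0484) was -1.62 without WT spleen replicate 1 (adjusted p = 0.408), -1.20 without VHL-deficient spleen replicate 2 (0.434), -2.87 without WT spleen replicate 2 (0.0454) and -3.29 without VHL-deficient spleen replicate 1 (0.00783). The call was kept under 7 of 14 alternative fits, and limma-voom was among those that lost it (0.313). The 2 remaining settings had 41.9 and 43.3 against 199.6 and 87.0 in unsplit tumor (-1.61, adjusted p = 0.238), and 78.6 and 49.1 against 202 and 213 in nonTrm cells (-1.72, adjusted p = 0.159).

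The 12 proliferation genes moved with genotype too. Their sum was 12496 to 14173 in WT and 3662 to 4402 in VHL-deficient day 11 libraries, and 19697 to 19970 and 3249 to 6985 in Trm libraries, with 10 and 11 of the 12 lower in VHL-deficient cells. WT nonTrm libraries had the highest Myb of any group (202 and 213) with sums of 7792 and 3514. The part of proliferation in the Myb difference was not tested. Among the 5 mitochondrial messages tested, 4 were also lower at day 11 and 5 in Trm cells. Mybl2, a Myb paralog that belongs to the cell cycle machinery, fell at day 11 as well (14.5 against 54.0, -1.88, adjusted p = 0.0153).

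**Figure D4:**
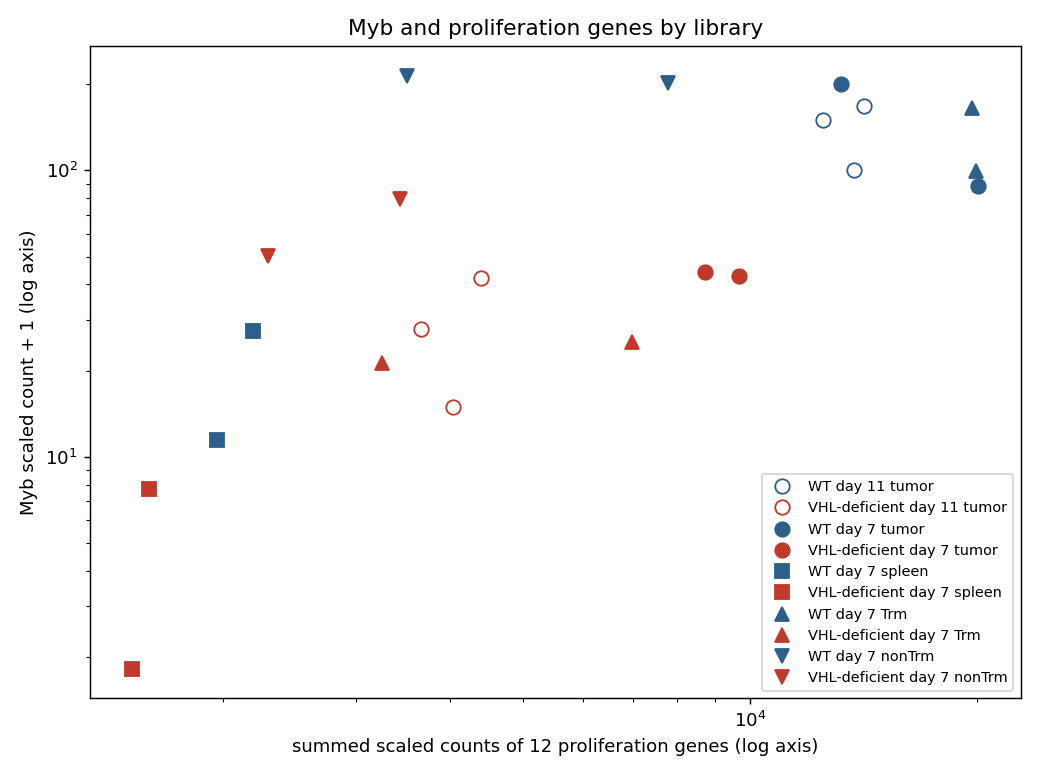
Myb (scaled count + 1) against the summed scaled counts of 12 proliferation genes in 22 libraries, both on log axes; color gives genotype and shape the sort or tissue, with open circles for day 11. VHL-deficient libraries lie below the WT libraries of the same setting, and the 2 WT nonTrm libraries carry the highest Myb at middling sums.

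Eomes was at the edge of detection in VHL-deficient cells. In the day 11 tumors it read 45.6, 55.5 and 33.7 scaled counts in WT (134 reads in all) and 1.16, 5.38 and 2.29 in VHL-deficient libraries (11 reads), a difference of -3.66 ± 0.82 (adjusted p = 0.00878). Without VHL-deficient day 11 replicate 1 the adjusted p was 0.0562. The size depended on the pseudocount, and with 5 in place of 1 it was -2.66. In Trm cells 41 reads faced 2 (a ratio of normalized read totals of 21.8, exact 95% interval 5.66 to 186, counting error only), and the difference of -3.23 ± 1.01 (adjusted p = 0.0458) kept its call under 6 of 13 settings. It was lost without WT Trm replicate 1 (0.129), WT Trm replicate 2 (0.164), VHL-deficient Trm replicate 1 (0.0976) or VHL-deficient Trm replicate 2 (0.263). In unsplit day 7 tumor 28 reads faced 3 (ratio 14.0, 4.31 to 71.8, adjusted p = 0.0691) and in spleen 11 faced 2 (ratio 5.48, 1.20 to 50.9, adjusted p = 0.414). In nonTrm cells 58 reads faced 13 (adjusted p = 0.184).

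NK cells also express Eomes. The 7 NK markers summed to 513 to 962 in WT and 281 to 530 in VHL-deficient day 11 libraries, 386 to 543 against 254 to 332 in unsplit day 7 tumor, 81.7 to 109 against 57.4 to 67.0 in spleen, 310.5 to 310.8 against 93.2 to 206 in Trm and 188 to 526 against 207 to 281 in nonTrm cells. Ncr1 was at 0 in 15 libraries, Klra4 in 16 and Klra8 in 19. Klre1 (11.2 to 679, median 197) and Klrb1f (1.55 to 52.9) were above 0 in all 22, Klrb1c (median 21.5) was at 0 in 1 and Klri2 (median 55.9) in 2. Klrb1f was the marker that fell at day 11 (7.17 against 42.1, -2.41, adjusted p = 0.0110). Their part in the Eomes difference was not tested.

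The mean of the 5 genotype differences, a comparison chosen after seeing the data and built from the same libraries, had smaller standard errors for the members than any single setting. In it 27.2% of tested genes were called, 15.5% higher and 11.8% lower, and 6 of 10 members, 4 lower and 2 higher. Eomes (-3.05 ± 0.44, adjusted p = 2.56e-05), Myb (-2.09 ± 0.27, adjusted p = 5.95e-06), Id3 (-1.52 ± 0.45, adjusted p = 0.0164) and Tcf7 (-1.23 ± 0.27, adjusted p = 0.00170) were lower in VHL-deficient cells. Id2 (0.74 ± 0.19, adjusted p = 0.00583) and Foxo1 (0.67 ± 0.17, adjusted p = 0.00717) were higher. All 6 kept their call under every setting that gave them a value, 30 settings for each except 29 for Eomes, the 22 that each left out 1 library among them. Of these 6, Tcf7, Id3, Id2 and Foxo1 passed in 0 of the 5 settings taken singly.

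Counts of settings without overlap in this paragraph have no share of all genes beside them. Mean log2 levels of Tcf7 were lower in VHL-deficient cells in 5 of 5 settings, and its libraries did not overlap in 3. In Trm cells the mean scaled count ran the other way (193 against 158), and the log2 difference there turned positive without WT Trm replicate 2 (0.18) or VHL-deficient Trm replicate 1 (1.10). The gap was widest in spleen, with 306 and 366 against 1251 and 1364 (-1.96 ± 0.62, adjusted p = 0.101), and narrowest in Trm cells, with 56.5 and 329 against 120.3 and 196 (-0.16). Id3 was lower in 5 of 5 and apart in 2, again widest in spleen (17.9 and 16.4 against 186 and 140.4, -3.17 ± 1.05, adjusted p = 0.126). It passed there with limma-voom (0.0367) and with a pseudocount of 5 (0.0385). Id2 was higher in 5 of 5, by 0.46 to 1.11, with the libraries apart in unsplit tumor and in spleen. Foxo1 was higher in 5 of 5, by 0.35 to 0.88, and apart in spleen, Trm and nonTrm cells, where VHL-deficient libraries read 659 and 1140.4 against 435 and 512 in WT.

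Lef1, Tbx21, Zeb2 and Bach2 were not called in the mean. Lef1 ran from -0.89 in spleen to 0.78 in Trm cells, where it read 301 and 467 against 224 and 213 (adjusted p = 0.124). The test of whether its genotype difference changed between Trm and nonTrm cells gave 1.08 ± 0.45 (adjusted p = 0.584), which passed only without VHL-deficient nonTrm replicate 1 (1.59, adjusted p = 0.0228). Tbx21 had a mean difference of -0.07 with a 95% interval from -0.43 to 0.28, and Bach2 0.23 with an interval from -0.02 to 0.47. Zeb2's mean was 0.30 (interval -0.43 to 1.03). Its spleen value of 1.67 was 3.83 without WT spleen replicate 2 (adjusted p = 2.65e-04), the library that holds all 18 WT spleen reads, and its mean then was 0.73 (adjusted p = 0.0120).

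Known targets and companions of the members also differed by genotype in that mean. Of the stem-like genes 3 rose and 8 fell of 17 (median -0.34, all genes 0.04), with the survival gene Bcl2 higher (1.36, adjusted p = 1.40e-09) and Dapl1 (-3.11, adjusted p = 7.30e-05) and Ccr7 (-1.34, adjusted p = 1.51e-04) lower. Of the T-bet and Eomes targets 6 rose and 1 fell of 15 (median 0.36), with the chemokine receptor Cxcr3 lower (-1.53, adjusted p = 1.80e-06) and granzyme B, Gzmb (1.34, adjusted p = 1.75e-04), and perforin, Prf1 (1.15, adjusted p = 2.65e-04), higher. Of the FOXO1 targets 2 rose and 2 fell of 10, with the cell cycle inhibitor Cdkn1b higher (1.09, adjusted p = 1.04e-05). Among partners and paralogs 4 rose and 3 fell of 11, with Tcf4 higher (2.13, adjusted p = 1.57e-06). All 12 proliferation genes fell. Bcl2 was higher in each of the 5 settings taken singly, from 1507 against 655 at day 11 to 2584 against 1103 in spleen.

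Markers of other cells moved with genotype beside these results. The 8 dendritic cell markers summed to 304 to 666 in WT and 1878 to 2264 in VHL-deficient day 11 libraries, and H2-Ab1, which belongs to the list, carried most of it (126 against 1574). Itgax (57.3 to 1203), Xcr1 (46.1 to 505) and Zbtb46 (5.41 to 248) were above 0 in all 22 libraries as well, H2-Aa was at 0 in 1, Flt3 in 13, Siglech in 17 and Clec9a in 18. B cell markers had the opposite sign, 311 to 591 against 76.1 to 135 at day 11, led by Ighm (427 against 74.8). Ighm and Cd79b (median 40.3) were above 0 in all 22 libraries, and Pax5 was at 0 in 18. Their part in the members' differences was not tested.

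Trm and nonTrm cells were compared within genotype, in 1 plate column, where 0 of 10 members passed in WT (0.300% of genes were called) and 0 of 10 in VHL-deficient cells (0.00698% called). At an unadjusted p under 0.05, 2 of 10 members and 1629 genes (11.4%) passed in WT. In VHL-deficient cells 1 of 10 members and 1257 genes (8.77%) did. Tcf7 read 120.3 and 196 in WT Trm and 289 and 653 in WT nonTrm cells (-1.50 ± 0.62, adjusted p = 0.349), and Lef1 224 and 213 against 375 and 476 (-0.95 ± 0.32, adjusted p = 0.208). The WT libraries of 3 of the 10 members (Tcf7, Lef1 and Myb) did not overlap, with Trm lower. The share of all tested genes without overlap was not computed, so this only describes the libraries. Myb was lower in Trm cells as well, 24.1 and 20.2 against 78.6 and 49.1 in VHL-deficient libraries (-1.45 ± 0.61, adjusted p = 0.524). The nonTrm pairs were wide in several members: replicate 2 was below replicate 1 for Tbx21 in both genotypes (1176 and 398 in WT, 1277 and 467 in VHL-deficient) and for Zeb2 (144 and 63.2, 150.4 and 57.3). Id3 read 3.01 and 68.0 in the WT nonTrm pair, and Id2 3000.3 and 9704 in the VHL-deficient one, whose replicate 2 is the library that stands apart. Without VHL-deficient nonTrm replicate 1, Id2 became a call in this comparison (-1.16, adjusted p = 0.0495), and Eomes (-4.33, 0.0102) and Id2 (1.65, 0.00897) became calls between genotypes in nonTrm cells. The VHL-deficient nonTrm side of each then rests on the library that stands apart alone.

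Day 11 and day 7 tumors lay in different plate columns, so day and column cannot be told apart. 0 members and 0 genes were called in limma in WT or VHL-deficient cells (0% called). At an unadjusted p under 0.05, 0 members passed in either, beside 484 genes (3.38%) in WT and 633 (4.42%) in VHL-deficient cells. Eomes read 45.6, 55.5 and 33.7 at day 11 against 17.4 and 28.2 at day 7 in WT (0.96 ± 0.92), the libraries apart. Zeb2 read 249.8, 217 and 201 against 166 and 141 (0.53 ± 0.73), also apart. Id2 was apart as well, with WT means of 2472 at day 11 and 1714 at day 7 (0.53 ± 0.40). The share of all tested genes that were apart was not computed, so this only describes the libraries. Tcf7 read 120.4, 91.2 and 249 against 137 and 127 (0.08 ± 0.56). The interaction of genotype with day called 0 members and 0 genes (0% called), with 268 genes (1.87%) at an unadjusted p under 0.05. That of genotype with the sort called 0 members and 0 genes (0% called), with 1156 genes (8.07%) at an unadjusted p under 0.05.

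Paralog pairs differed in which member dominated. Per kb of exon, Tbx21 exceeded Eomes in every group, at 446 against 5.50 in WT day 7 tumor and 260.3 against 0.219 in VHL-deficient Trm cells. Id2 exceeded Id3 in every group too, at 1591 against 91.3 in WT spleen and 1132 against 6.22 in VHL-deficient unsplit tumor. The group mean of Tcf7 exceeded that of Lef1 in every group but VHL-deficient unsplit tumor. Tcf7 led in WT spleen, at 498 against 82.3, while in VHL-deficient unsplit tumor Tcf7 had 16.4 (13.2 to 19.6) and Lef1 21.4 (18.6 to 24.2), ranges that overlap. Exon lengths per GENCODE M21 were 2625 bases for Tcf7 and 8788 for Lef1. An opposite-strand gene overlaps Tcf7, Lef1, Eomes, Zeb2, Bach2, Myb and Foxo1, and the sources used here do not give the strand setting of the counting, so their reads may include antisense ones. Tbx21, Id2 and Id3 have none.

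**Figure D5:**
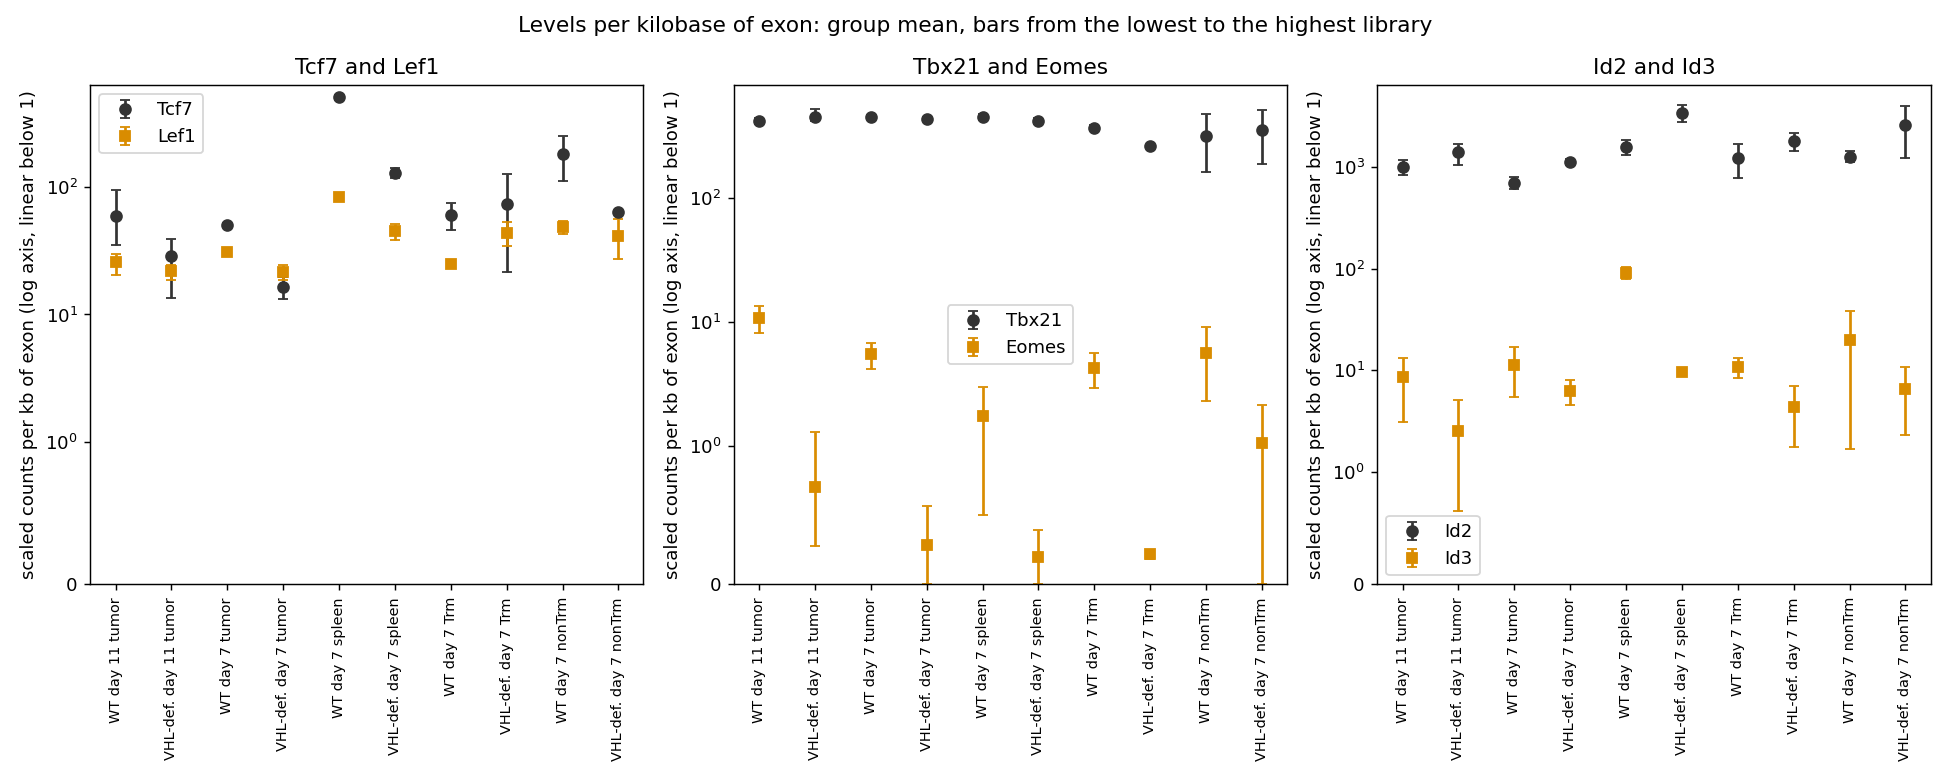
Scaled counts per kb of exon for 3 paralog pairs in the 10 groups, on a log axis that is linear below 1; points are group means and bars span the lowest to the highest library. Tbx21 lies above Eomes and Id2 above Id3 in all groups, while Tcf7 and Lef1 come together in VHL-deficient tumor.

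Across the 22 libraries, 5 of the 45 pairs of members had a correlation of log2 levels above 0.6 and 8 had one below -0.6. The highest Pearson correlations were 0.88 for Tcf7 with Lef1, 0.78 for Zeb2 with Bach2, 0.73 for Tcf7 with Id3 and 0.69 for Eomes with Myb. The lowest were -0.73 for Tcf7 with Zeb2, -0.71 for Lef1 with Zeb2, -0.66 for Id3 with Zeb2 and -0.65 for Eomes with Id2. These are descriptions: the points share groups, depth and genotype. Among the 3 genes most like Tcf7, of 6863 well-expressed genes, were Cxcr3 (0.88) and Pdcd4. The 3 most like the others were Slc26a11 (0.89), Tnfrsf26 and Arhgap25 for Lef1, Plxnc1 (0.88), Cd6 and Ciapin1 for Eomes, and Ubtf (0.84), Glud1 and Tmem214 for Tbx21. For Id2 they were Cd48 (0.92), Tmem59 and Klf13, for Id3 Slamf6 (0.87) and Agpat3, with the third a row whose name a spreadsheet had turned into a date. Cers6 (0.98), Lin54 and Ccdc50 were most like Zeb2, Il2ra (0.92), Junb and Egr3 most like Bach2, Baiap2 (0.90), Slamf1 and Tnip3 most like Myb, and Lrpap1 (0.80), N4bp2l2 and Pitpna most like Foxo1. Slamf6 is a surface marker of stem-like T cells.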

How the data were processed

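The authors deposited 1 table of a signal per gene and library, which the recovered steps show to be a read count divided by a size factor, plus 1. STAR, featureCounts, DESeq and mm10 are named without versions, per the submitters' processing notes, and RNA was captured on beads and made into libraries with the PrepX kit, per the labels' protocols. The table's header states 55 samples, and 22 columns were used. The offset was removed, giving scaled counts, and reads came out whole for 100% of values, within a tolerance of 0.01 reads (the largest deviation was 0.000282). Labels with "V" were taken to mean VHL-deficient.

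Differences were fitted with limma 3.58.1 in R 4.3.3 on log2(scaled count + 1), as 10 group means over 22 libraries with a trended variance, and p-values were two-sided and Benjamini-Hochberg adjusted over the 14327 genes with at least 10 scaled counts in at least 2 libraries. Genes were called at an adjusted p under 0.05. Fold differences on this scale understate the change of low genes. The members and lists were chosen with earlier results of these data known. Named genes were the members, Vhl, the 3 genes most correlated with each member, and up to 3 called genes per list and comparison with the smallest adjusted p. The alternatives were other filters, pseudocounts, scalings, tests and sets of libraries, limma-voom on recovered reads, and a replicate block. On simulated counts the 3 against 3 comparison recovered 15% of genes changed by 1 and 52% of those changed by 2 on the log2 scale. In the 2 against 2 comparison these were 7% and 44%. A value's precision is therefore limited by 2 or 3 libraries per group and, for Eomes, Id3, Zeb2 and Myb in spleen, by few reads. A listed gene that stands in the counts but not in the text or figures is not reported here.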

Additional observations from a re-analysis of the deposited data

How the results depend on the processing

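Of the 150 member differences tested, 23 were called, and 13 of these kept their call under every setting that gave a value; 0 changed sign. Of the 127 not called, 57 changed sign under some setting, the largest of these having a log2 difference of 1.67 in size (Zeb2 between genotypes in spleen). Counts of members called moved as follows. In spleen, between genotypes, 1 became 0 without a filter beyond 1 read and 0 without the variance trend, and ranged from 0 to 2 when libraries were left out (a lone remaining library is assumed to vary like the other groups). In Trm cells 2 became 1 without a filter, with a filter at 50 scaled counts, with a pseudocount of 0.5 or without the trend, and ranged from 0 to 3 with libraries left out. At day 11, 2 became 1 with the filter at 50, under which Eomes has no value, and ranged from 1 to 2. In unsplit day 7 tumor 0 became 1 with a pseudocount of 5 and ranged from 0 to 1. Between tumor and spleen in WT, 6 became 3 in the fit on the compared groups only, which has 2 residual degrees of freedom. Leaving out a library gave 0 to 2 members between genotypes in nonTrm cells, 0 to 1 for Trm against nonTrm in VHL-deficient cells, and 0 to 1 for genotype by sort.

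The replicate numbers were not shown to pair libraries. Between genotypes, same-numbered libraries correlated at 0.043, 0.105 and 0.104 at day 11. The day 7 values between genotypes were 0.029 in unsplit tumor, 0.118 in spleen, 0.236 in Trm and 0.271 in nonTrm cells. Between tumor and spleen or Trm and nonTrm cells they were negative, from -0.181 to -0.011. With the replicate number as a block, the members called stayed at 2 (day 11), 0 (unsplit), 1 (spleen), 2 (Trm), 0 (nonTrm), 6 and 6 (tumor against spleen) and 6 (mean). The block raised the genes called in nonTrm cells from 332 to 675 and lowered those of genotype by tissue from 10 to 3. The crossed pairing called 51 genes for Trm against nonTrm in WT and 1 in VHL-deficient cells, beside 43 and 1. Genome-wide counts moved by over 1.5 times elsewhere too: the 984 genes of day 11 were 604 without a filter, 2825 with only the compared groups, and 419 to 1549 with libraries left out, and the 1446 of Trm cells were 896, 667 and 234 to 2358. With only the compared groups, the 273 genes of unsplit day 7 tumor were 116, the 455 of spleen 80, the 332 of nonTrm cells 0, the 43 of Trm against nonTrm in WT 0, the 3079 of tumor against spleen in WT 1126, and the 0 of day 11 against day 7 in VHL-deficient tumor 71. With libraries left out, these were 94 to 424, 231 to 642, 131 to 1998, 0 to 218, 1486 to 3980 and 0, the 2213 of tumor against spleen in VHL-deficient cells were 876 to 2873, the 1 of Trm against nonTrm in VHL-deficient cells was 0 to 2543, and the 0 of genotype by sort was 0 to 1494. limma-voom on the recovered reads called 253 in spleen, 117 for Trm against nonTrm in WT and 2 for genotype by tissue. The further scaling moved the share of higher calls of Trm against nonTrm in WT from 67.4% to 52.9%. Depth limits Eomes most, since 3 reads were worth 2.05 to 8.18 scaled counts.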
